A study of Mus musculus with 6 samples.

Results

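The enzymes described here build purine nucleotides from small precursors. They were examined because Pfas, one of them, stood among the largest positive log2 folds of the comparison deposited from a Sox4 knockdown experiment. The names of the compared conditions are not given, so this sign is not known to be that of the knockdown. The set was fixed by name as Ppat, Gart, Pfas, Paics, Adsl, Atic, Impdh1, Impdh2 and Gmps, and all 9 had a row among the 12316 gene rows of the authors' deposited table. The experiment used neural stem cells of the embryonic mouse (strain CD-1, E14.5), obtained commercially and grown as a monolayer on laminin with EGF and bFGF. All cells carried a lentiviral short hairpin RNA (shRNA) and were selected with puromycin at 0.5 µg/mL. There were 6 libraries of poly(A) RNA, 2 with a scrambled hairpin, 2 with Sox4 shRNA 1 and 2 with Sox4 shRNA 2, each pair being 2 passages. The series' design text speaks of 1 hairpin against Sox4 where the labels list 2, and the table does not say which of them enter its comparison. Sox4 encodes a transcription factor of the SoxC group.

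The deposited table compares 2 conditions whose names its header does not give, and it holds 1 level per gene and condition. A direction below is therefore that of the second over the first condition, and "rose" or "fell" is used only of genes that the authors flagged as significant by Cuffdiff (called genes). Levels are in a unit that the header does not state. Cuffdiff writes such levels per transcript length (FPKM), and the comparisons of levels between genes below assume this. Sequencing depth is unknown, and no value per library is held in the table, so the spread between passages or hairpins cannot be shown. The labels do not say whether passages came from separate cultures, so the p-values may measure technical spread only. Sox4 itself had levels of 126.8 (first condition) and 83.9 (second condition) by the authors' deposited table, with a q of 0.0543, and was not called. Its exons share 2616 bases with Gm26735 on the other strand.

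Purine synthesis starts from phosphoribosyl pyrophosphate (PRPP) and assembles the purine ring on it, step by step, until inosine monophosphate (IMP) is formed. Ppat, Gart, Pfas, Paics, Adsl and Atic encode the enzymes of this trunk. Glutamine, glycine, formyl groups carried by folate, bicarbonate and aspartate supply the atoms of the ring. From IMP, the IMP dehydrogenases Impdh1 and Impdh2 and then Gmps lead to GMP, while adenylosuccinate synthetase and Adsl lead to AMP. Dividing cells draw on this pathway for DNA and RNA, beside salvage of preformed bases.

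The change of Pfas was accompanied by smaller rises of Gart and Atic and by no call among the other members. By the authors' flag 3 of 9 enzymes rose, 0 fell and 6 were not called. Over all rows 4.99% were called, 3.17% higher and 1.83% lower. Pfas was chosen by its log2 fold and q in this same comparison, and the others by their place in its pathway, so the values below are a description, and nothing is read from these shares. Leaving Pfas aside, 2 of 8 enzymes rose. Of the 9, 8 had a positive log2 fold, against 50.5% of all rows. These 8 include Pfas itself, and Impdh2 and Gmps at 0.0048 and 0.0033, next to the median of all rows. The median log2 fold was 0.39 over the 9 and 0.38 over the 8 without Pfas, against 0.0033 over all rows.

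Pfas encodes the enzyme that turns formylglycinamide ribonucleotide into its amidine with nitrogen from glutamine, a step of the trunk between those of Gart. By the authors' deposited table it rose 4.70-fold, from 8.17 to 38.4. The log2 fold of 2.23 had a q of 0.00304 by Cuffdiff and ranked 15 from the top among all rows in the authors' deposited table. Pfas had the lowest level of the 9 enzymes in the first condition and rank 5 of the 9 in the second. The gene lies on chromosome 11, 68985697 to 69008460 on the minus strand (GRCm38), and its longest coding transcript has 28 exons and 6373 nt. Its exons share 39 bases with the microRNA gene Mir3062 on the same strand.

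Gart encodes a single protein with several enzyme activities of the trunk, among them the first transfer of a formyl group from folate. It rose, by the authors' deposited table, from 37.2 to 61.3, 1.65-fold, with a log2 fold of 0.72 and a Cuffdiff q of 0.00528. Atic encodes the enzyme that adds the second formyl group and closes the ring to IMP. It rose, by the authors' deposited table, from 47.1 to 71.2, 1.51-fold, with a log2 fold of 0.60 and a Cuffdiff q of 0.0309. Both rises were smaller than that of Pfas, and both genes started from levels above it. Gart lies on chromosome 16, 91621186 to 91646952 on the minus strand, and Atic on chromosome 1, 71557150 to 71579631 on the plus strand. Exons of Gart share 1014 bases with Gm15964 on the other strand, and reads of such a pair can be told apart only if strand was used in counting, which the sources used here do not give.

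**Figure D1:**
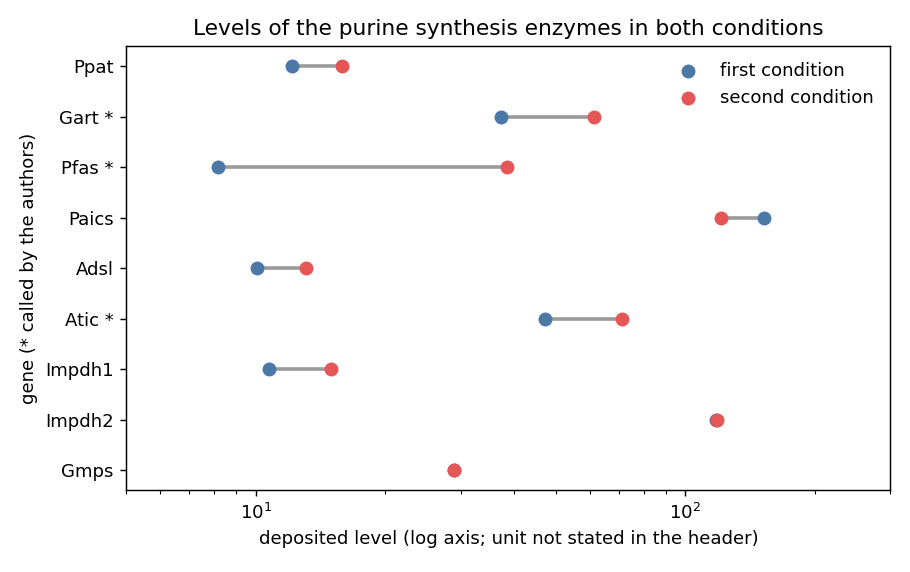
Deposited level of each purine synthesis enzyme in the first (blue) and second (red) condition, on a log axis in a unit the header does not state; an asterisk marks genes called by the authors. Pfas runs from 8.17 to 38.4, while the points of Impdh2 and of Gmps lie on each other.

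The other trunk enzymes were not called. Ppat, which encodes the amidotransferase of the first committed step, stood at 12.1 and 15.9 in the authors' deposited table, with a log2 fold of 0.39 and a Cuffdiff q of 0.773. Adsl, whose product acts both in the trunk and on the way to AMP, stood at 10.1 and 13.1 in the authors' deposited table, with a log2 fold of 0.38 and a q of 0.335. These 2 folds are near each other and below those of the called members. Paics encodes a bifunctional enzyme of carboxylation and aspartate addition and had the highest level of the 9 in both conditions. It stood at 152.6 and 121.2 in the authors' deposited table, the single negative fold of the set, at -0.33 on the log2 scale with a q of 0.395.

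Ppat and Paics are neighbours on chromosome 5 that are read in opposite directions from overlapping starts. Ppat spans 76913249 to 76951578 on the minus strand and Paics 76951307 to 76967509 on the plus strand, and their exons share 272 bases. Their log2 folds had opposite signs, and neither was called. If strand was not used, part of the reads of either gene could have been counted for the other.

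The branch to GMP contained no called gene. Impdh1 and Impdh2 encode the isozymes of IMP dehydrogenase, which commits IMP to guanine nucleotides. Impdh1 stood at 10.8 and 15.0 in the authors' deposited table, with a log2 fold of 0.48, an unadjusted p of 0.0226 and a Cuffdiff q of 0.203. With Impdh1 counted, 4 of the 9 enzymes had an unadjusted p under 0.05 and a positive fold, and 0 a negative one, beside 9.96% and 7.53% of all rows. Impdh2 was near level, at 117.8 and 118.2 in the authors' deposited table, with a log2 fold of 0.0048 and a q of 0.993. Impdh2 was thus the more abundant isozyme in both conditions, if levels are per length. Gmps, which aminates XMP to GMP, stood at 28.9 and 29.0 in the authors' deposited table, with a log2 fold of 0.0033 and a q of 0.995. The processed pseudogene Impdh2-ps matches 1545 nt of the Impdh2 transcript at 99.7% identity, so reads could be split between them. The pseudogenes Gm20656 and Gm20657 each match 276 nt of Gmps, and exons of Impdh2 share 48 bases with Ndufaf3 on the other strand. Pfas, Atic, Adsl and Impdh1 had no match to another gene's transcript of at least 200 nt at 95% identity or more.

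The test statistic of the authors' deposited table gives a measure of error for each fold. Read as the log2 fold over its standard error, it implies a standard error of 0.37 for Pfas, 0.30 for Gart, 0.30 for Atic and 0.81 for Ppat. The median was 0.32 over the 9 enzymes and 0.35 over all rows, so Ppat was measured less precisely than the other members. The approximate 95% interval of the log2 fold was 1.52 to 2.95 for Pfas, 0.14 to 1.30 for Gart and 0.02 to 1.18 for Atic. That of Ppat, -1.20 to 1.98, was the only one of the other 8 to reach into the interval of Pfas. For Impdh2 it was -0.57 to 0.58 and for Gmps -0.58 to 0.59, so changes of up to about those sizes are not shown to be absent. The difference between Pfas and the other members could not be tested without values per library.

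**Figure D2:**
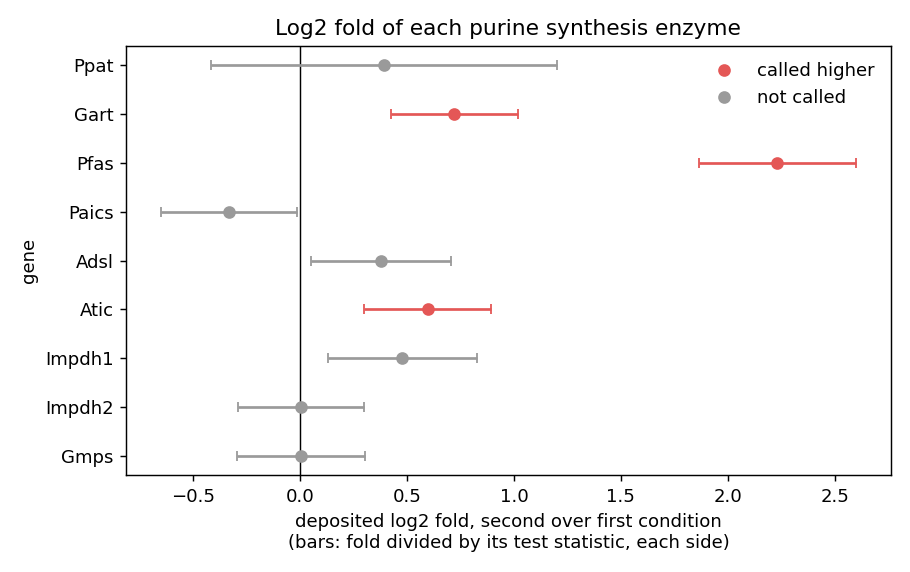
Deposited log2 fold of each purine synthesis enzyme, second over first condition, with bars of 1 implied standard error (the fold divided by its test statistic) on each side. Pfas at 2.23 stands apart from Gart at 0.72 and Atic at 0.60, and the bar of Ppat is the widest.

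The calls of Gart and Atic rest on the deposited p-values. Those p-values are mostly smaller than the test statistics would give as normal deviates, by a median ratio of 1.64 between the deviate of the p and the statistic. The reverse also occurs, as for Snord66, with a statistic of 10.33 and a Cuffdiff p of 0.501. With p recomputed from the statistic in that way and adjusted by Benjamini-Hochberg over all rows, Pfas alone of the 9 passed. The recomputed q was 7.9e-07 for Pfas, 0.603 for Gart and 0.962 for Atic.

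**Figure D3:**
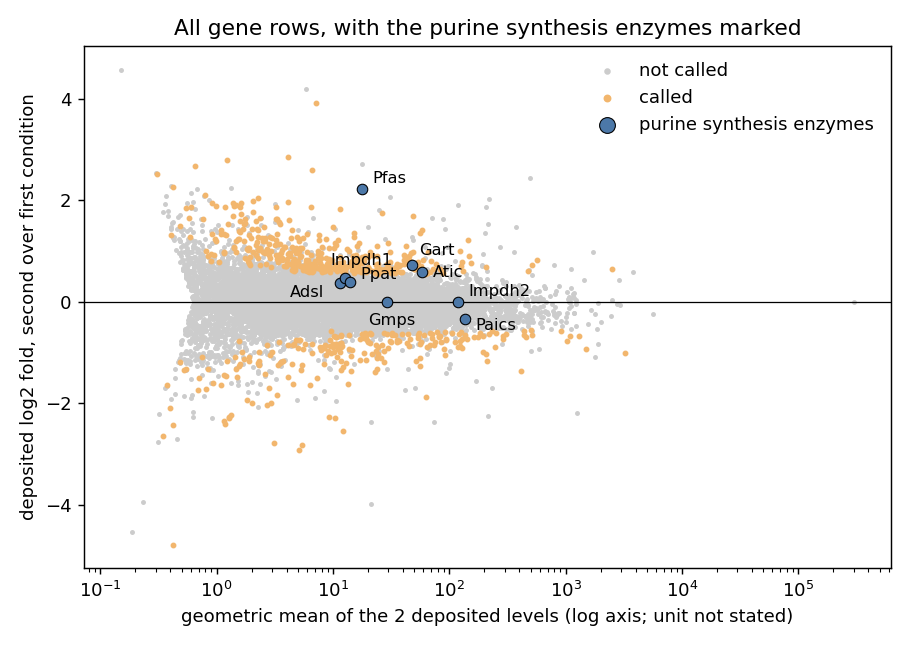
Deposited log2 fold against the geometric mean of both deposited levels (log axis) for all gene rows, with called rows in orange and the 9 purine synthesis enzymes in blue. Pfas lies above nearly all genes of its level, while Gart and Atic lie at the inner edge of the called rows and the others among uncalled rows.

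Rises were more frequent among long transcripts in this comparison, and Pfas has a long transcript. With genes split into 10 groups of equal size by transcript length (GENCODE M21), in the group of Pfas 54 of 1213 genes rose and 18 fell, with a median log2 fold of 0.12. In the group of the longest transcripts, which holds Gmps, 161 of 1214 rose and 16 fell. In the group that holds Gart, 35 of 1213 rose and 27 fell, and in that of Atic 25 of 1214 rose and 24 fell. With the median of the same length group taken off, the log2 folds were 2.12 for Pfas, 0.72 for Gart and 0.62 for Atic. Gmps, at 8105 nt the longest transcript of the set, went from 0.0033 to -0.23 by the same step.

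The genes around Pfas were looked up for their own levels. Within 100 kb of its start, 16 other genes are annotated, of which 7 had a row. Of these 1, Ctc1, had an unadjusted p under 0.05 and a positive fold, as did 9.96% of all rows. The Cuffdiff flag was carried by 0, beside 4.99% of all rows, and nothing is read from these counts over so few genes. Their log2 folds ran from -0.06 to 0.42. The nearest of them, Ctc1, whose product acts in telomere maintenance, starts 7451 bases away and is read in the opposite direction. It stood at 26.03 and 34.33 in the authors' deposited table, with a q of 0.217. Rangrf, a nuclear transport gene, stood at 30.9 and 41.2, and the mitotic kinase gene Aurkb at 27.7 and 27.8, in the authors' deposited table.

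Few genes had a fold like that of Pfas. Among 11170 single-gene rows with a level of at least 1 in both conditions, Pfas held rank 5 from the top. The neighbours in that order, over these 2 conditions, were Snord66 and Smim20 above it and Chpf2 and Cend1 below it. By the authors' deposited table Smim20 rose from 2.70 to 16.4 and Cend1 from 1.11 to 4.59, each from a level below that of Pfas. Chpf2, a chondroitin synthesis gene, stood at 7.67 and 36.0 in the authors' deposited table, close to the levels of Pfas, yet its Cuffdiff q was 0.568 and it was not called. Snord66, a small nucleolar RNA gene, was not called either, at 212.4 and 1156 in the authors' deposited table (q 0.818).

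Promoter sequence gives a further property that the choice of the set did not use. The RefSeq table (GRCm38.p6) holds windows of 300 bases, from 250 before to 50 after the start, for 8 of the 9 enzymes, all but Pfas, with 2 windows for Impdh1. The windows of Gart and Atic are shown because these genes rose, and that of Paics because its fold went the other way; capitals mark CACGTG, the E-box that MYC proteins can bind.
Gart, chr16:91646923-91647222, minus strand: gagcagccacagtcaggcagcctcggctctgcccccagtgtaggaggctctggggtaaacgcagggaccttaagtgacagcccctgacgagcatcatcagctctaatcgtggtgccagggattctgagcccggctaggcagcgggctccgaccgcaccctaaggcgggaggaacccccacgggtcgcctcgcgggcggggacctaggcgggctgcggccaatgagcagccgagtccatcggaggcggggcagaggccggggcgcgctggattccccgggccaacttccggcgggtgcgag
Atic, chr1:71556906-71557205, plus strand: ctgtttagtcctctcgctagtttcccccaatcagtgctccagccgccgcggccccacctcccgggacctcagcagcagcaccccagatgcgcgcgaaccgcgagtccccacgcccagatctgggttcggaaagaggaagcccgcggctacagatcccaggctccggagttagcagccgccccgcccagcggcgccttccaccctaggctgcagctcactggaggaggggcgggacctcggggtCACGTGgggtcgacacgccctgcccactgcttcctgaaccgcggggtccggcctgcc
Paics, chr5:76951052-76951351, plus strand: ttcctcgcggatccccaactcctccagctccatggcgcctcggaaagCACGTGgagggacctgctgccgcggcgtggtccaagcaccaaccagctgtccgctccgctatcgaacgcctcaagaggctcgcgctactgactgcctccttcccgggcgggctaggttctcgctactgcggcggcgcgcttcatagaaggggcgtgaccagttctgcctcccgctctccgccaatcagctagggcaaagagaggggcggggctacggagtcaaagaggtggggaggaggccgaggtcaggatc
CACGTG reads the same on both strands. It stood in the windows of Atic, Paics and Impdh2, starting 7, 203 and 110 bases before the start, and in none of the windows of Gart, Ppat, Adsl, Impdh1 and Gmps. Thus 1 of the 2 called genes with a window held it, as did Paics, whose fold was negative, and Impdh2, which was near level. Over all 32851 RefSeq windows, 7.15% held it, and of the 11156 windows of measured genes 1119 did. The SOX type motif AACAAAG, searched on both strands, stood in 0 of the 9 windows, in 5.85% of all windows and in 3.93% of those of measured genes. A match is a description of letters only.

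**Figure D4:**
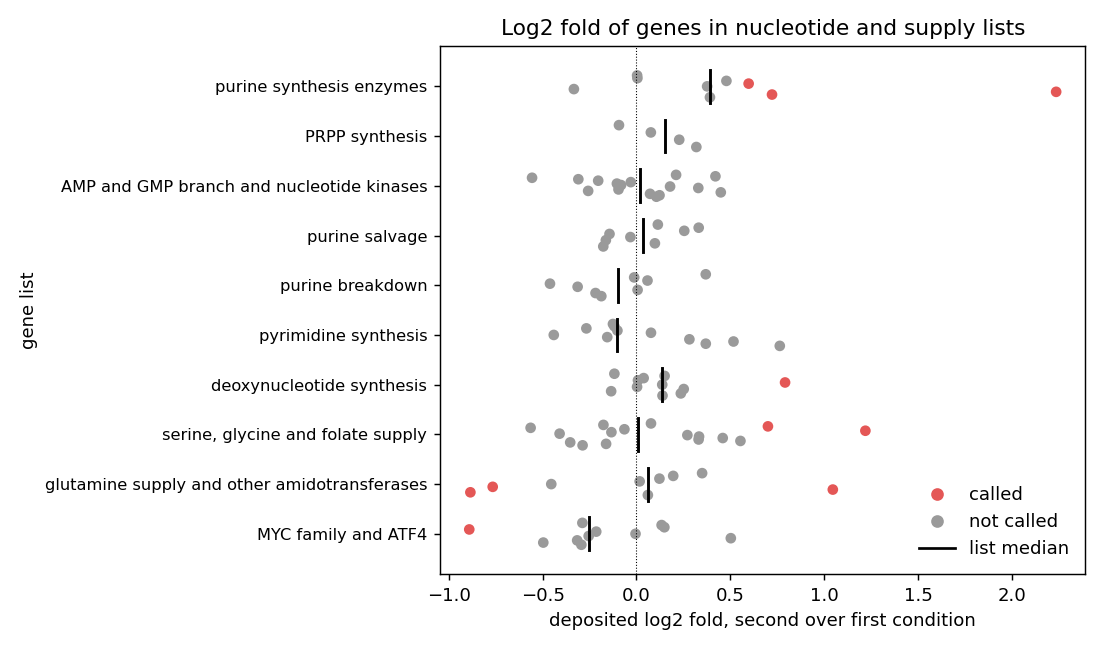
Deposited log2 fold of the measured genes in each list of nucleotide metabolism and supply; points are genes, red where called, and black bars are list medians. The purine synthesis enzymes have a median of 0.39, and in the other lists 4 genes rose and 3 fell among 94.

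Beyond the 9 enzymes, calls in both directions came from supply and regulator genes. Among further genes of nucleotide metabolism itself only Dctd was called, and it rose. Across 9 lists of pathway, supply and regulator genes, 103 genes were listed and 94 were measured, that is, had a row of their own with a level of at least 1 in the higher condition. Of these 94, 4 rose and 3 fell, against 3.29% higher and 1.89% lower over the 11564 genes measured in this way. At an unadjusted p under 0.05 the shares of all rows were 9.96% higher and 7.53% lower. Nothing is read from these counts or from those of the single lists below. Of 4 genes that make or regulate PRPP, 0 carried the Cuffdiff flag and 0 had an unadjusted p under 0.05. Prps1, a PRPP synthetase and the highest of them, stood at 44.7 and 55.7 in the authors' deposited table. Among 16 genes of the AMP and GMP branches and nucleotide kinases 0 carried the Cuffdiff flag and 1 had an unadjusted p under 0.05, and the median log2 fold was 0.02. The highest, the nucleoside diphosphate kinase gene Nme2, stood at 275.2 and 222.1 in the authors' deposited table, and its exons share 573 bases with Gm20390 on the same strand.

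Salvage and breakdown of purines contained no call either. Of 8 salvage genes 0 carried the Cuffdiff flag and 0 had an unadjusted p under 0.05. Their median log2 fold was 0.03, with 4 positive folds. Aprt, which salvages adenine and was the highest of them, had a Cuffdiff q of 0.884 and a log2 fold of 0.10, per the authors' deposited table. Of 8 breakdown genes 0 were called, again with 0 at an unadjusted p under 0.05, and the median was -0.10. Itpa, which clears ITP, stood at 58.7 and 58.2 in the authors' deposited table.

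In pyrimidine synthesis 0 of 11 genes carried the Cuffdiff flag and 1 had an unadjusted p under 0.05. The median log2 fold was -0.10, and 5 of the 11 folds were positive. This list holds kinases such as Uck2 beside genes of the synthesis itself, so its median describes neither alone. Uck2, a uridine and cytidine kinase, was the highest at 52.2 and 55.0 in the authors' deposited table. Cad, which encodes the trifunctional enzyme that opens pyrimidine synthesis, was singled out after its values were seen. By the authors' deposited table it stood at 22.8 and 38.6. The log2 fold of 0.76 was larger than that of Gart. However, the implied standard error was 0.81 and the Cuffdiff q 0.482, and Cad was not called. Its transcript has 7137 nt, and rises were more frequent among long transcripts, as given above. Umps, Dhodh and Ctps were also singled out after their values were seen. Their log2 folds were 0.52, 0.37 and 0.28 in the authors' deposited table, and none was called. Ctps2, named beside Ctps, had a log2 fold of -0.16 and was not called either. Umps was the gene of this list with an unadjusted p under 0.05, at 0.00665 by Cuffdiff. In deoxynucleotide synthesis 1 of 11 genes rose and 0 fell, beside 3.29% and 1.89% of all measured genes, with a median of 0.14. The call was Dctd, which encodes dCMP deaminase and rose, by the authors' deposited table, from 7.09 to 12.3.

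The supply of one-carbon units and glutamine held the remaining calls among enzymes and carriers. Of 16 genes of serine, glycine and folate supply 2 rose and 0 fell, beside 3.29% higher and 1.89% lower over all measured genes. At an unadjusted Cuffdiff p under 0.05, 4 were higher and 1 lower, beside 9.96% and 7.53% of all rows. The median log2 fold of 0.0065 lay between folds of opposite sign, 8 of the 16 being positive. Shmt1 and Mthfd1 stood at 0.55 and 0.46, and Phgdh, Psat1 and Psph at -0.29, -0.16 and -0.35. These 5 genes were singled out after their values were seen, and none was called. Slc19a1, the reduced folate carrier, rose, by the authors' deposited table, from 10.7 to 17.4, with a Cuffdiff q of 0.0322. Aldh1l1, an enzyme that oxidises formyl folate and is used as an astrocyte marker, rose, by the authors' deposited table, from 4.98 to 11.6. Its exons share 105 bases with Gm45901 on the same strand and 499 with Gm15756 on the other. Of 9 genes of glutamine supply and other amidotransferases 1 rose and 2 fell, beside the same 3.29% and 1.89%, with a median of 0.06. The glutamine carrier gene Slc1a5 rose, by the authors' deposited table, from 3.20 to 6.60. Slc38a1, another glutamine carrier gene, fell, by the authors' deposited table, from 40.2 to 23.7. Glul, which encodes glutamine synthetase and is abundant in astrocytes, fell, by the authors' deposited table, from 338.7 to 183.6. Exons of Glul share 116 bases with Teddm2 on the other strand and 93 with Mir8114 on the same strand.

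MYC proteins and ATF4 are known to act on genes of purine or one-carbon synthesis. Their list of 11 measured genes also holds partners and opponents of MYC, so its median log2 fold of -0.25 has no single reading. Of the 11 genes 0 rose and 1 fell, beside 3.29% and 1.89% of all measured genes. The fall was Mxi1, which encodes a MAX partner that opposes MYC, by the authors' deposited table from 11.4 to 6.15. Its exons share 194 bases with Gm10197 on the other strand. Myc, also singled out after its values were seen, stood at 31.5 and 25.7 in the authors' deposited table, with a Cuffdiff q of 0.466.

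Marker genes place these values beside the makeup of the cultures. Over the 11564 measured genes 3.29% rose and 1.89% fell, the shares to set beside the marker counts that follow. Of 10 neural stem cell markers 9 had a row, of which Nes rose and Fabp7 and Hes5 fell, with 5 of the 9 folds positive. The summed level of the 9 went from 6174 to 3964. Fabp7 made up most of that sum in both conditions, so the sum mainly follows this gene. Fabp7, a fatty acid binding protein gene of radial glia, stood at 4620 and 2286 in the authors' deposited table, and Nes, an intermediate filament gene, at 98.1 and 170. The stem cell markers Sox2, Vim and Slc1a3 were measured and not called. Of 8 proliferation genes 2 rose, Mcm2 and Mcm3, and 0 fell. Of the 8 folds 6 were positive, while Ccnb1 and Cdk1 stood at -0.06 and -0.22 on the log2 scale. The summed level of the 8 went from 935.8 to 1101, most of it from Pcna, which was not called. Of 5 listed astrocyte markers 0 rose and 3 fell, Gfap, Aqp4 and Slc1a2. Their list had a summed level going from 1227 to 846, most of it from Aldoc, which was not called. Aldh1l1, also used as an astrocyte marker but outside that list, rose, as given above. In bulk RNA, fewer cells of a type and less RNA per cell cannot be told apart. Of 4 neuron markers with a row 0 were called, at summed levels of 9.17 and 7.36. Most of that sum came from Tubb3, at 6.75 and 3.90, with an unadjusted Cuffdiff p of 0.00645. Rbfox3, Snap25 and Syt1 had positive folds at low levels. Of 4 oligodendrocyte precursor markers 0 were called, at summed levels of 1387 and 1206. Most of this came from Olig1, and of the 4 folds only that of Cspg4 was positive. Of 13 listed markers of fibroblasts, microglia and endothelium 0 had a row, and they were not analysed here. The part of these marker levels in the values of the purine synthesis enzymes was not tested.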

How the data were processed

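RNA-seq of 6 libraries was analysed from the authors' comparison table. Per the submitters' processing notes, the build was mm10 and the tools were Cuffdiff, Cufflinks 2.2.1 and TopHat2 2.0.9. For annotation, strand in counting and pooling of hairpins, a statement is not given in the sources used here. Per the file headers, each row gives a deposited level per condition, their log2 fold, a test statistic (a score), a p-value and a q-value, all made by the authors. The highest q called was 0.0494. Read as Benjamini-Hochberg values, the q-values imply at least 14188 tests, more than the 12316 gene rows used. Shares and recomputed q-values over all rows therefore cover these rows only. Depth is unknown, and no test was refitted.

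Computed here, with scipy 1.17.1, pandas 2.3.3, numpy 2.4.6 and matplotlib 3.10.9 under Python 3.11.15, were counts, medians, implied standard errors, q-values under alternatives, and motif matches. Near-identical copies were sought with blastn 2.17.0. Positions, exons and lengths came from GENCODE M21 on GRCm38, the assembly named mm10, with lengths for 98.5% of rows. The adjustment steps were tested on simulated data.

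Members and lists were chosen with earlier results of these data known. Genes named were the 9 enzymes, Sox4, called genes of each pathway list (otherwise its highest), genes within 100 kb of Pfas, and 2 rows on each side of it by fold. Marker genes, Cad, Umps, Dhodh, Ctps, Ctps2, Shmt1, Mthfd1, Phgdh, Psat1, Psph and Myc were named outside this rule. The assumed FPKM unit is not stated in the header, so levels were used without one.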

Additional observations from a re-analysis of the deposited data

How the results depend on the processing

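The 3 rises among purine synthesis enzymes remained 3, Pfas, Gart and Atic, with q recomputed over genes at a level of at least 1 or 5. Leaving out rows of several genes could not change this count, because each enzyme has a row that names it alone. The 3 rises became 2 at a q of 0.01 (Pfas and Gart) and 1 at 1 or more in absolute log2 fold (Pfas). They became 4 at an unadjusted p under 0.05 (with Impdh1). With p from the statistic read as a normal deviate, an alternative chosen after seeing the data, they became 1 (Pfas). The count of 0 falls was 0 under each of these. Over all rows, rises numbered 390 and falls 225; at a q of 0.01 the numbers were 203 and 110, at 1 or more in absolute log2 fold 134 and 89, at an unadjusted p under 0.05 1227 and 928, and with p from the statistic 41 and 32. The 4 rises and 3 falls of the other pathway lists became 9 and 6 at an unadjusted p under 0.05. Stricter or looser thresholds must give fewer or more calls. Pseudocounts, centring and length left the median log2 fold of the 9 enzymes between 0.36 and 0.39. Of 36 alternative folds of single enzymes 0 moved beyond the implied standard error. Of them 1, that of Gmps with the length median taken off, changed sign, to -0.23. Most of these could hardly have moved, since all levels were at least 8.17 and centring took off only 0.0013. The length step was the only alternative with room to shift a fold much. No paired analysis was possible because passages share a single level in each condition. For that reason no replicate could be left out, and a block on passage was not run.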
